A study of Mus musculus with 30 samples.

Results

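The enzymes that write, copy and erase DNA methylation were followed through acute drug exposure and acquired drug resistance in a mouse B-cell lymphoma. The set comprised 7 genes chosen by symbol: the DNA methyltransferases Dnmt1, Dnmt3a and Dnmt3b, the cofactor Uhrf1, and the dioxygenases Tet1, Tet2 and Tet3. All 7 were found among the 19937 genes with a probe set of their own, and where a gene had several probe sets the brightest one on average was used. The resistant groups were the lines R100, R500, R1000 and R4000, selected by dose escalation to 100, 500, 1000 and 4000 nM mafosfamide, an alkylating drug related to cyclophosphamide. R500, R1000 and R4000 were measured after 24 h in 750 nM mafosfamide and untreated, and R100 only untreated, with 1 array per line and condition. The parental line was measured at 0, 6, 12, 24 and 48 h of 750 nM mafosfamide on 5, 4, 4, 5 and 5 arrays labelled as biological replicates. All groups shared 1 genetic background (Eµ-Myc; Cdkn2a-/-, C57BL/6J) and were grown over irradiated Cdkn2a-/- mouse embryonic fibroblasts.

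The Eµ-Myc transgene drives Myc from an immunoglobulin enhancer in B-lineage cells, and loss of Cdkn2a removes the Arf and Ink4a tumour suppressors. The parental line is 1 lymphoma in culture and the resistant lines are successive steps of 1 escalation, so p-values measure the spread between cultures, not between tumours or mice. RNA was taken from bulk cultures, in which fewer cells of a type and less RNA per cell cannot be told apart. Values are log2 expression, so a difference of 1 is a 2-fold change. A gene was called when its limma p-value, adjusted by the Benjamini-Hochberg method over all 19937 genes, was below 0.05.

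Dnmt1 copies methylation onto the daughter strand after replication, and Uhrf1 guides it there by binding hemimethylated CpG. Dnmt3a and Dnmt3b methylate unmethylated CpG de novo. The TET enzymes oxidise 5-methylcytosine, which leads to its dilution at replication or its replacement by base excision repair, and DNMT3A and TET2 are among the genes recurrently mutated in human blood cancers.

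Array medians lay between 7.28 and 7.44 over all 34760 probe sets. The interquartile range of parental 0 h replicate 5 was 3.07, against 3.34 to 3.64 on the other arrays. Of 11 B-lineage markers 10 lay above the median gene (7.55), compared with 1 of 13 T and NK cell markers and 3 of 13 myeloid markers. Fibroblast markers were also present, with 20 of 28 above the median gene. Their mean was 8.99 ± 0.59 at 24 h in parental cells and 8.13 ± 0.22 at 0 h (SD, n = 5 each). Of these, 13 of 28 were called higher at 24 h, where 4.35% of all genes were called higher and 2.43% lower. In the same comparison 2 of 11 B-lineage markers were called higher and 2 of 13 T and NK cell markers lower. Of 13 myeloid markers 1 was called higher and 1 lower.

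Dnmt1 and Uhrf1 were the steadiest of the set. Dnmt1 (probe set 10591369, chromosome 9) averaged 12.19 over the 30 arrays, between 12.03 and 12.30, with an SD of 0.064, and 0.602% of genes varied less. Uhrf1 (probe set 10446074, chromosome 17) averaged 12.01 with an SD of 0.080, and 2.57% of genes varied less. The median gene had an SD of 0.152 over the same arrays. Dnmt1 and Uhrf1 were brighter on average than 96.8% and 96.0% of genes. Their SDs were not compared with those of genes of like brightness.

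The windows around annotated start sites of these genes, 250 bases before to 50 after, were read from RefSeq (GRCm38.p6) to show the sequence at annotated starts of the steadiest pair. They were searched on both strands for TTTCGCGC and TTTGGCGC, forms of the site bound by E2F factors, which drive S phase genes. One or the other occurs in 0.813% of the 32851 mouse windows. Dnmt1 has 3 windows and Uhrf1 has 2, and 1 window of each held a match, in capitals below (as its reverse complement where it lies on the opposite strand). Which of the annotated starts these cells use was not tested. The Dnmt1 window (chr9:20952574-20952873, minus strand) holds TTTCGCGC on the opposite strand from 219 bases before the start and TTTGGCGC from 33 bases after it. The Uhrf1 window (chr17:56304063-56304362, plus strand) holds TTTCGCGC from 185 bases before the start. Each has 33 CpG, more than 91.4% of windows.
Dnmt1: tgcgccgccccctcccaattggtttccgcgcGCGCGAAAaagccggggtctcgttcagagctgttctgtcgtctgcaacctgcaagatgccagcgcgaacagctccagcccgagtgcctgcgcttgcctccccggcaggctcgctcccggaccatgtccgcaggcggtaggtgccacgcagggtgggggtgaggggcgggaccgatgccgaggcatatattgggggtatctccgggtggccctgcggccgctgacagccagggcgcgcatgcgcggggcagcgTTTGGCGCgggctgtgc
Uhrf1: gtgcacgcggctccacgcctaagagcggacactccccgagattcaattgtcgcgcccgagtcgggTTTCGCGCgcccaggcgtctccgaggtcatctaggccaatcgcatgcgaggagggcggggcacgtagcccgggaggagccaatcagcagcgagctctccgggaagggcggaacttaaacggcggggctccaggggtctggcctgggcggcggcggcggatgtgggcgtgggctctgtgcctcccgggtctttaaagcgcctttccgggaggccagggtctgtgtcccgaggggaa

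Across the parental time course the group means of Dnmt1 lay between 12.15 and 12.20. It averaged 12.20 ± 0.07 at 0 h, 12.18 ± 0.06 at 6 h, 12.18 ± 0.04 at 12 h, 12.15 ± 0.09 at 24 h and 12.16 ± 0.06 at 48 h (SD, n = 5, 4, 4, 5 and 5). Uhrf1 averaged 11.98 ± 0.08, 12.02 ± 0.07, 11.95 ± 0.12, 12.05 ± 0.09 and 12.00 ± 0.06 at the same times. Neither gene was called at any time. At 24 h the 95% interval of the log2 difference from 0 h ran from -0.16 to 0.07 for Dnmt1 and from -0.05 to 0.20 for Uhrf1.

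Dnmt3a was the one gene of the set that rose in treated parental cells. Its probe set (10394209, chromosome 12) gave 9.08, 9.09, 9.15, 9.09 and 9.01 at 24 h, against 9.01, 8.77, 8.59, 8.79 and 8.60 at 0 h. The groups did not overlap, although the lowest 24 h array and the highest 0 h array both round to 9.01. The 24 h arrays were also the tightest group, with 9.09 ± 0.05 against 8.75 ± 0.17 at 0 h (SD, n = 5 each). The rise was 0.33 on the log2 scale (SE 0.09, 95% interval 0.15 to 0.51), or 1.26-fold, with an adjusted p of 0.0291. Dnmt3a was thus 1 of 7 genes called at 24 h, where 6.78% of all genes were called and 4.35% were called higher. In 1.98% of all genes every 24 h array lay above every 0 h array.

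Dnmt3a has 3 annotated windows, and 1 of them is printed because it holds CACGTG, the E-box bound by Myc and its partner Max. This 6-base motif occurs in 7.15% of windows. The match starts 80 bases before the start site at chr12:3891494-3891793 (plus strand), and this window has 18 CpG. The other Dnmt3a windows, without a match, have 46 and 47 CpG. The E2F-type motifs were found in none of the Dnmt3a, Dnmt3b or TET windows, and CACGTG in no other window of the set.
Dnmt3a: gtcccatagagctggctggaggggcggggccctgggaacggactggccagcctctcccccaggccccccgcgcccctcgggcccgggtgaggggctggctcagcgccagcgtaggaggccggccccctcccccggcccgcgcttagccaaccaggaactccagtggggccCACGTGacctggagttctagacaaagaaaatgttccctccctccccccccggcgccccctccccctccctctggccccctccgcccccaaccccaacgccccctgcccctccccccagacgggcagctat

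At the other times the Dnmt3a means lay between these 2. It measured 9.05, 8.86, 8.86 and 8.77 at 6 h (log2 difference from 0 h 0.14, adjusted p = 0.999), 9.15, 8.99, 8.77 and 8.69 at 12 h (0.15, adjusted p = 0.522), and 9.03, 8.88, 8.89, 8.79 and 8.78 at 48 h (0.12, adjusted p = 0.544). Each of these groups overlapped the 0 h arrays. The level at 48 h was 0.21 below that at 24 h (95% interval -0.39 to -0.03), which limma did not call (adjusted p = 0.656), where 0.105% of genes were called. A moderated F test over all times did not call Dnmt3a or any other gene of the set (Dnmt3a F = 3.72, adjusted p = 0.198), where 2.34% of genes were called. This call depends on the settings, since Dnmt3a passed with array weights (F = 5.18, adjusted p = 0.0351). It also passed with replicate numbers as a block, as given at the end. Its adjusted p in the F test lay between 0.0273 and 0.604 over all alternatives.

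The fibroblast marker mean moved in the same direction at 24 h, with arrays between 8.16 and 9.73 at 24 h and between 7.95 and 8.48 at 0 h. With that mean as a covariate the Dnmt3a difference was 0.32 but no longer called (SE 0.114, against 0.087 without it, adjusted p = 0.138). Without the 2 arrays of highest fibroblast mean at 24 h it was 0.33 (adjusted p = 0.0971), an alternative chosen after seeing the data. The S phase gene mean was 11.49 ± 0.07 at 24 h and 11.37 ± 0.10 at 0 h, and with it as a covariate the difference was 0.25 (adjusted p = 0.152). The B-lineage marker mean was 10.75 ± 0.10 at 24 h and 10.50 ± 0.22 at 0 h. Over the 30 arrays Dnmt3a had r = 0.66 with it, 0.54 with the S phase mean and 0.25 with the fibroblast mean. The part of B-lineage genes in the Dnmt3a difference was not tested. The call was also lost when the 6, 12 and 48 h arrays were left out of the fit (adjusted p = 0.111), without 0 h replicate 3 or 5 (0.29 and 0.30, adjusted p = 0.0768 and 0.0745) and without 24 h replicate 1, 2, 3 or 4 (0.32 to 0.33, adjusted p = 0.05002 to 0.05495). Over all alternatives, those that kept the call included, the adjusted p lay between 0.00285 and 0.152.

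**Figure D1:**
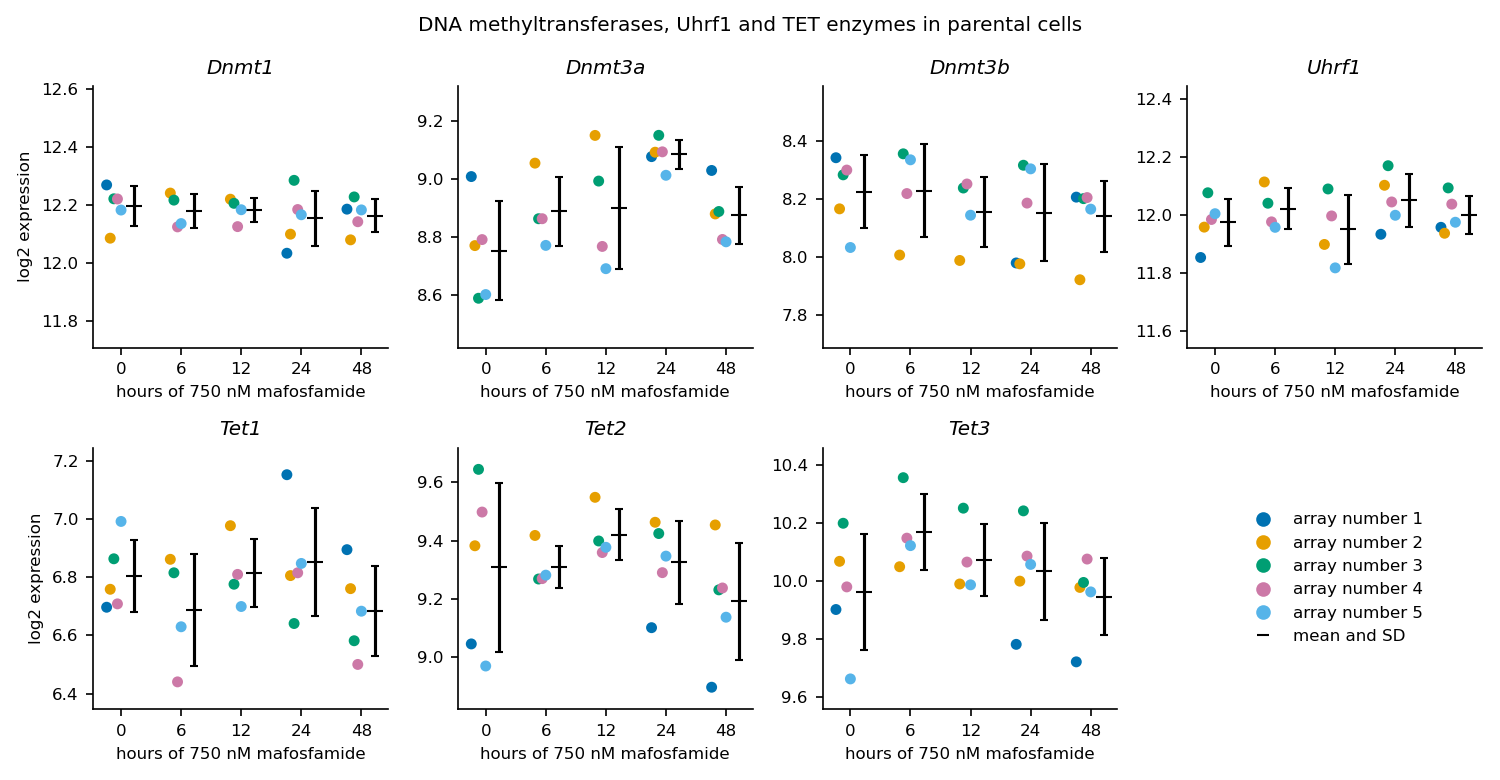
Log2 expression (vertical axes, each spanning the same 0.9 units) of the 7 genes in parental cells by hours of 750 nM mafosfamide, with 1 point per array coloured by the array number of its sample description, and the mean and SD as bars. Dnmt3a at 24 h (9.09 ± 0.05) lies above all 0 h arrays, and every other group of every gene overlaps its 0 h group.

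Dnmt3b, the second de novo enzyme, was not called at any time. Its probe set (10477325, chromosome 2) averaged 8.22 ± 0.13 at 0 h, 8.23 ± 0.16 at 6 h, 8.15 ± 0.12 at 12 h, 8.15 ± 0.17 at 24 h and 8.14 ± 0.12 at 48 h (SD, n = 5, 4, 4, 5 and 5). At 24 h its difference from 0 h was -0.07 (95% interval -0.26 to 0.11), opposite in sign to that of Dnmt3a.

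The 3 TET enzymes showed no called change in the time course. Tet3 (probe set 10545682, chromosome 6) averaged 9.96 ± 0.20, 10.17 ± 0.13, 10.07 ± 0.12, 10.03 ± 0.17 and 9.95 ± 0.13 at 0, 6, 12, 24 and 48 h (SD, n = 5, 4, 4, 5 and 5). Its largest difference was 0.21 at 6 h, with an interval of -0.01 to 0.42 (adjusted p = 0.984). Tet2 (probe set 10502284, chromosome 3) averaged 9.31 ± 0.29, 9.31 ± 0.07, 9.42 ± 0.09, 9.32 ± 0.14 and 9.19 ± 0.20. The 0 h arrays of Tet2 were the most spread of any group in the set, at 9.044, 9.382, 9.645, 9.498 and 8.968.

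The brightest Tet1 probe set (10369702, chromosome 10) averaged 6.74, below the median gene. It averaged 6.80 ± 0.12, 6.69 ± 0.19, 6.82 ± 0.12, 6.85 ± 0.19 and 6.68 ± 0.15 at the same times. The table holds no detection call, so whether Tet1 was above background cannot be said. Its other probe sets had r = 0.40 and -0.06 with the first over the 30 arrays, and the second probe set of Tet3 had r = 0.50 with the first.

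The intervals, per gene and unadjusted, show the precision of these differences on the scale of the arrays. They set no limit on the change in RNA, since small differences at low signal are compressed. Leaving out Dnmt3a, the 24 h bound farthest from 0 was that of Tet3, a 1.21-fold rise. Over all 7 genes the intervals reached no more than 1.34-fold at 6 h, 1.29-fold at 12 h and 1.28-fold at 48 h. At these times 0.0201%, 0.512% and 0.251% of all genes were called and none of the set.

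**Figure D2:**
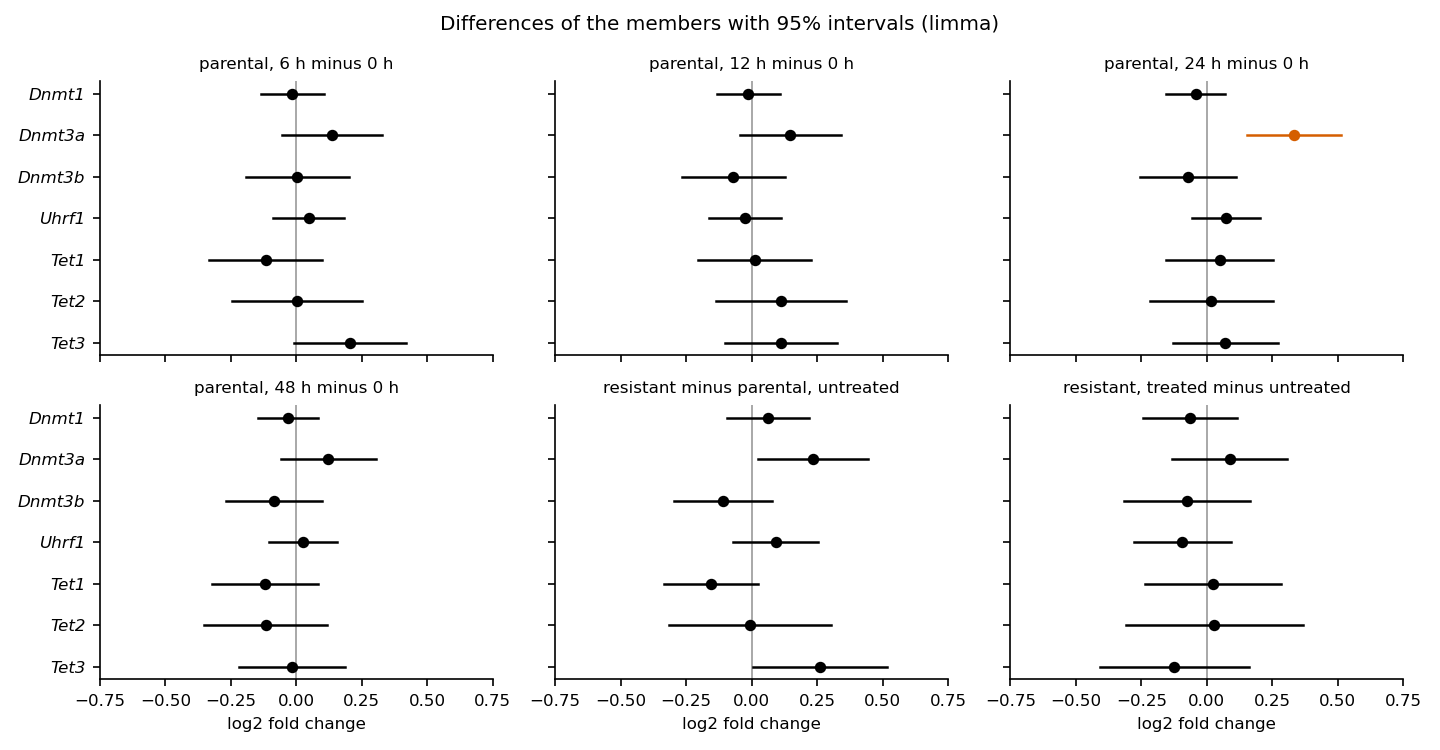
Log2 fold change (horizontal axes) of each gene with its 95% limma interval, in parental cells at 4 times against 0 h, in untreated resistant lines against parental 0 h cells, and in treated against untreated resistant lines. The called difference, Dnmt3a at 24 h (0.33), is in orange, and all others are in black.

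To ask whether acquired resistance came with a different level of these enzymes, arrays of the 4 lines without drug were set against the 5 parental 0 h arrays. No gene of the set was called, where 0.0752% of all genes were. Of the 28 values (7 genes in 4 lines), 6 lay above, 4 below and 18 within the parental 0 h range. The same share was not counted over all genes, so these counts serve as a description only. The 4 low values were all Tet1.

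Dnmt3a measured 8.901 in R100, 9.003 in R500, 9.034 in R1000 and 9.004 in R4000, against a parental 0 h range of 8.590 to 9.008. All 4 lines lay above 4 of the 5 parental arrays, and R1000 lay above all 5. The difference was 0.23 (SE 0.10, 95% interval 0.02 to 0.44), with an adjusted p of 0.637 in limma.

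Tet3 measured 10.10, 10.18, 10.46 and 10.15 in R100, R500, R1000 and R4000, against 9.66 to 10.20 in parental 0 h cells. Only R1000 lay above the parental range. The mean difference of 0.26 (interval 0.00 to 0.52) had an adjusted p of 0.690, and the second Tet3 probe set differed by -0.01 (SE 0.11).

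Tet1 measured 6.64, 6.66, 6.63 and 6.66 in the 4 lines, against 6.70 to 6.99 in parental 0 h cells. It was the one gene of the set whose groups did not overlap here, a pattern found in 1.33% of all genes in the lower direction and in 3.65% in either. The difference was -0.16 (interval -0.34 to 0.02, adjusted p = 0.771), and the other Tet1 probe sets differed by 0.04 and -0.01.

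The remaining genes moved less. Uhrf1 measured 12.01, 12.04, 12.08 and 12.13 in R100, R500, R1000 and R4000, against 11.85 to 12.08 in parental 0 h cells, a difference of 0.09 (interval -0.07 to 0.26). Dnmt1 differed by 0.06 (interval -0.09 to 0.22), Dnmt3b by -0.11 (interval -0.30 to 0.08) and Tet2 by -0.01 (interval -0.31 to 0.30). The highest bound of any gene in this comparison was 1.43-fold, for Tet3.

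Along the order parental, R100, R500, R1000, R4000, coded 0 to 4, the slopes were 0.08 log2 units per step for Dnmt3a and 0.09 for Tet3, with adjusted p of 0.881 for both. No gene of the array was called for this slope by limma, and 4.36% had p below 0.05 before adjustment. For the second Tet3 probe set the slope was -0.002 per step (SE 0.036). Ranked by covariance with the same order over the 34760 probe sets, Tet3 stood at 2495 and Dnmt3a at 3441 from the highest. None of the 7 was within 1000 of either end.

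**Figure D3:**
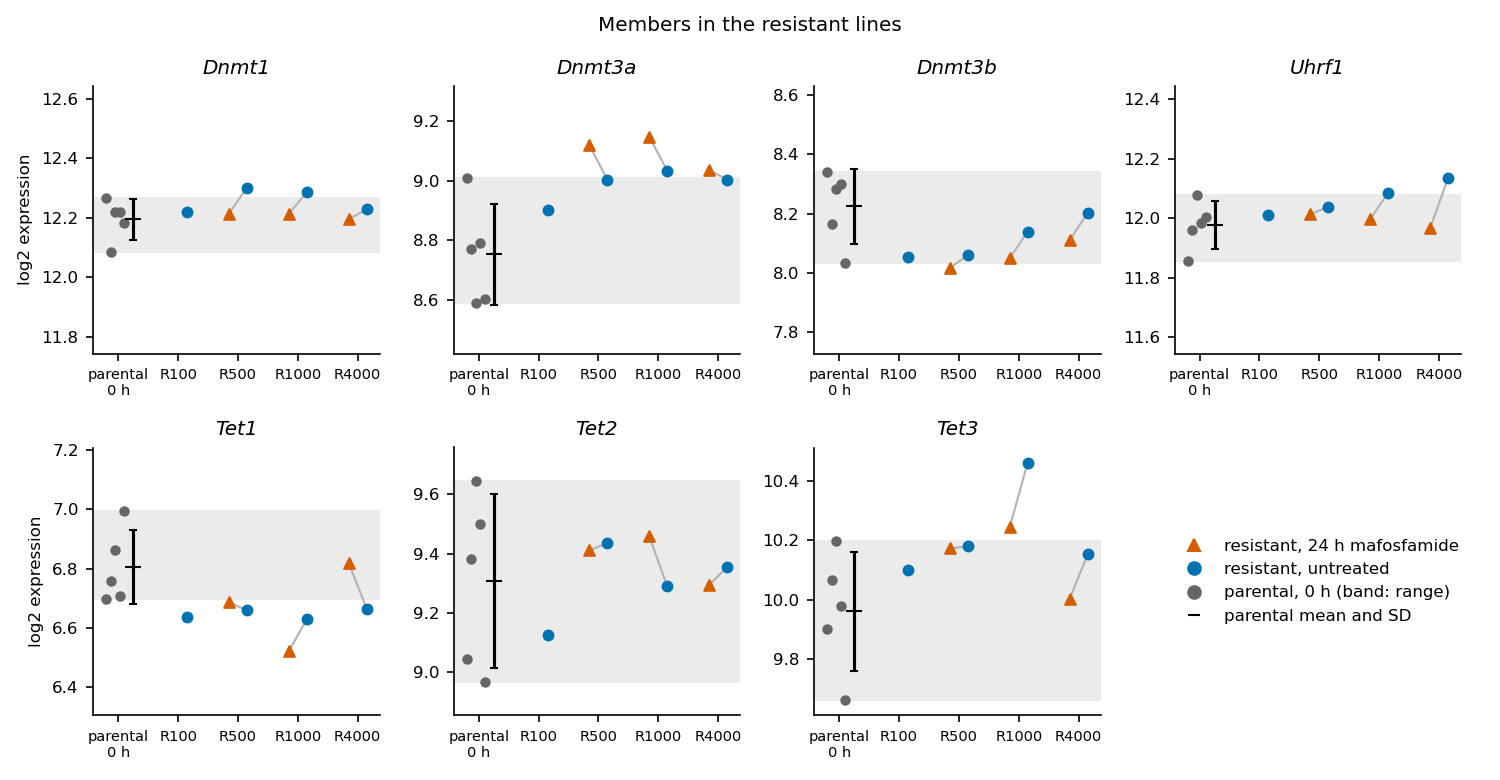
Log2 expression (vertical axes, each spanning 0.9 units) of the 7 genes in parental 0 h cells (grey points, range as a band, mean and SD as a bar) and in each resistant line after 24 h of 750 nM mafosfamide (orange triangles) and untreated (blue points), with 1 array per symbol. All 4 untreated Tet1 values (6.63 to 6.66) lie below the band, and the treated Dnmt3a values (9.04 to 9.15) lie above it.

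The resistant lines were then exposed to the same dose. Dnmt3a gave 9.119, 9.147 and 9.036 in treated R500, R1000 and R4000, against 9.003, 9.034 and 9.004 in the same lines untreated. All 3 treated lines were higher, by 0.09 on average (95% interval -0.13 to 0.31). The fit also held the parental 0 h and 24 h arrays. The spread behind its intervals and p-values is therefore not that of the 3 lines alone. Dnmt1, Dnmt3b, Uhrf1 and, on its brightest probe set, Tet3 were lower after treatment in all 3 lines. A shared direction in all 3 lines was found in 36% of all genes (14.5% higher and 21.5% lower), and no gene of the set was called (adjusted p = 1.00 for each in limma), where 0.0301% of genes were. On the brightest probe set of each gene, the smallest and the largest mean differences were -0.12 for Tet3 and 0.09 for Dnmt3a. No interval of these probe sets went beyond 1.33-fold.

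Uhrf1 had its widest gap in R4000, with 11.97 treated and 12.13 untreated, compared with 12.00 and 12.08 in R1000 and 12.01 and 12.04 in R500. Tet3 measured 10.172, 10.245 and 10.002 in treated R500, R1000 and R4000, against 10.179, 10.461 and 10.152 untreated. The second Tet3 probe set was higher in treated R500 (9.17 against 9.09 untreated) and lower in treated R1000 and R4000. Its mean difference was -0.006 (SE 0.16). Tet1 measured 6.69, 6.52 and 6.82 in the treated lines, against 6.66, 6.63 and 6.66 untreated, with no shared direction. Its other probe sets were lower in each treated line, with mean differences of -0.21 and -0.21 (SE 0.11 each). Neither was called.

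The difference in response between resistant and parental cells was tested directly. The 24 h effect on Dnmt3a was 0.09 in resistant cells and 0.33 in parental cells, a difference of -0.25 (95% interval -0.52 to 0.03, adjusted p = 0.655). So the rise of Dnmt3a called in parental cells was not shown to differ from the response of the resistant lines. No gene of the array was called for this difference by limma, and 7.83% had p below 0.05 before adjustment. For the other 6 genes it lay between -0.20 for Tet3 and 0.01 for Tet2. The comparisons are not independent, since they share the parental 0 h arrays or the untreated arrays of the lines.

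Set side by side, the group means of Dnmt3a ran 8.75 (parental 0 h), 8.87 (48 h), 8.89 (6 h), 8.90 (12 h), 8.99 (untreated resistant), 9.09 (24 h) and 9.10 (treated resistant). Each group overlapped its neighbours in this order.

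Other genes of methylation metabolism were read from lists by role. At 24 h in parental cells 1 of 10 Dnmt1 and Uhrf1 partners rose, 1 of 11 TET partners and suppliers of their co-substrate rose and 2 of 24 S phase genes rose, where 4.35% of all genes were called higher. None of these fell, and none of 7 de novo partners, 8 methyl-CpG readers, 11 genes of active demethylation and base excision or 7 methyl donor genes was called. The median log2 difference was 0.04 for the Dnmt1 and Uhrf1 partners, -0.09 for the TET partners and 0.13 for the S phase genes (21 of 24 above 0), and -0.04 over all genes (42.9% above 0).

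Idh2, a mitochondrial isocitrate dehydrogenase, is 1 of several sources of 2-oxoglutarate, the co-substrate of TET enzymes. It gave 11.17, 10.84, 10.91, 10.90 and 10.72 at 24 h, against 10.57, 10.16, 10.05, 10.43 and 10.10 at 0 h. The groups did not overlap, and the rise was 0.65 (SE 0.11, adjusted p = 0.00209). Hells, a chromatin remodeller needed for normal DNA methylation, gave 11.10, 11.55, 11.66, 11.67 and 11.60 at 24 h, against 11.20, 10.96, 11.05, 11.13 and 10.68 at 0 h. It rose by 0.51 (SE 0.10, adjusted p = 0.00589), with 1 of the 24 h arrays inside the 0 h range. The S phase genes were Orc1 (0.47, adjusted p = 0.0238), a subunit of the origin recognition complex, and Mcm10 (0.26, adjusted p = 0.0446), a replication initiation factor. With the fibroblast mean as a covariate Idh2, Hells and Mcm10 were still called (adjusted p = 0.0479, 0.00132 and 0.0476), and Orc1 was not (0.56, adjusted p = 0.0510). Over 37 alternatives the call was kept in all for Idh2, 36 for Hells, 31 for Orc1 and 19 for Mcm10. Hells was lost when the 6, 12 and 48 h arrays were left out of the fit (adjusted p = 0.0988), Orc1 without 0 h replicate 3 or 5 (adjusted p = 0.0524 and 0.0572), among others, and Mcm10 without any of 12 single arrays (adjusted p = 0.0502 to 0.118), among others.

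In the untreated resistant lines 1 listed gene was called, where 0.0752% of all genes were. Gadd45b, a stress-induced gene implicated in active DNA demethylation, measured 11.338, 11.466, 11.652 and 10.966 in R100, R500, R1000 and R4000, against 9.9985, 10.117, 10.161, 10.049 and 9.7701 in parental 0 h cells. All 4 lines lay above all 5 parental arrays, and the rise was 1.34 (SE 0.13, adjusted p = 0.0117). The fibroblast mean was 8.27 ± 0.09 in the untreated lines and 8.13 ± 0.22 in parental 0 h cells (SD, n = 4 and 5), and with it as a covariate the rise was 1.41 (adjusted p = 0.00803). The call was lost without parental 0 h replicate 4 (1.34, adjusted p = 0.0564), R500 (1.30, adjusted p = 0.0673) or R1000 (1.24, adjusted p = 0.0529), and kept in the other 17 of 20 alternatives. After 24 h of drug the lines R500, R1000 and R4000 measured 11.47, 11.66 and 12.07. The other listed genes of methylation metabolism were not called in any comparison.

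Within a parental time, arrays that carry the same number in their sample descriptions often deviated the same way. Tet2 lay below the mean of its time on all 3 arrays numbered 1 (by 0.26 on average) and above it on all 5 numbered 2. Dnmt3b lay below on all 5 numbered 2 (mean deviation -0.17), and Dnmt1, Dnmt3b, Uhrf1 and Tet3 lay above on all 5 numbered 3. Dnmt3a lay below on all 5 numbered 5 (mean deviation -0.13).

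The share of variance among the 23 parental arrays taken by that number, after time, was 54.0% for Tet2, 53.6% for Uhrf1, 52.6% for Dnmt3b and 50.0% for Tet3, compared with 31.4% for the median gene. The share taken by time, after number, was 10.9%, 21.6%, 8.70% and 14.3% for these genes. In Dnmt3a time took the larger share, with 45.9% against 30.2% for the number. What the number stands for is not given in the sources used here, and the titles of the 6 h and 12 h samples carry other numbers.

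**Figure D4:**
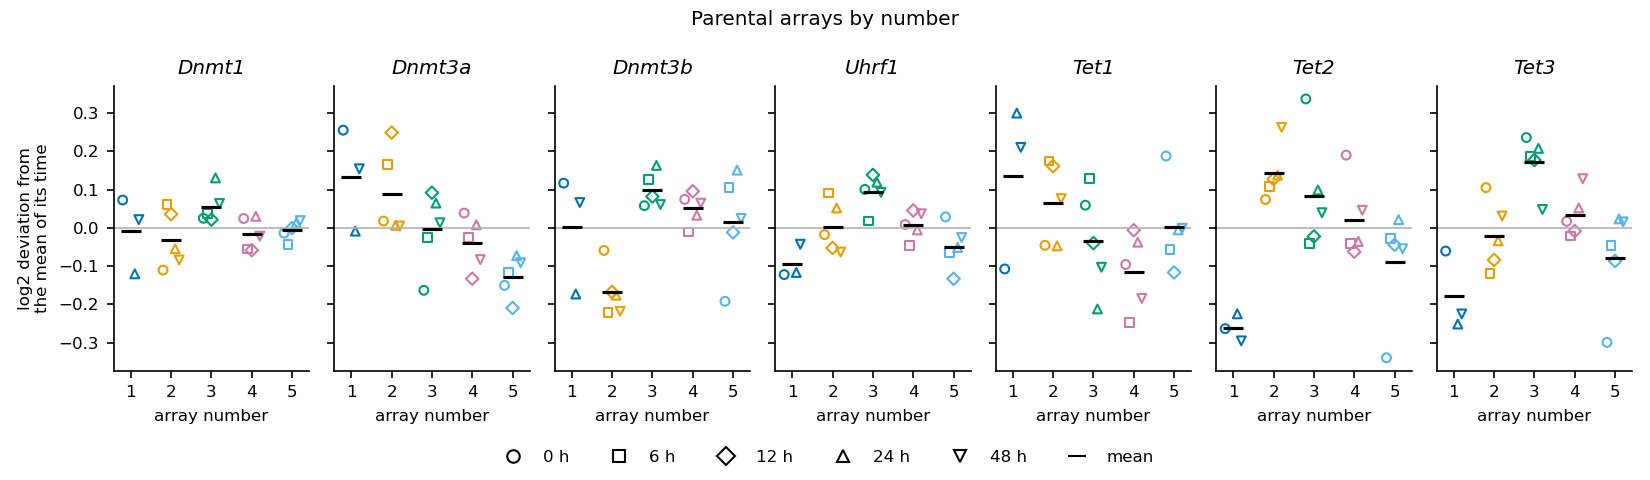
Deviation of each parental array from the mean of its time (log2, vertical axis) by the array number of its sample description (horizontal axis), with a symbol per time and the mean of each number as a bar. Tet2 is low at number 1 (mean -0.26) and Dnmt3b at number 2 (mean -0.17), while Tet3 is high at number 3 (mean 0.17).

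The 7 genes did not move as a block. Over the 30 arrays the highest Pearson correlation within the set was that of Tet2 and Tet3 (r = 0.54) and the lowest that of Tet1 and Tet3 (r = -0.51), with r = 0.33 for Dnmt1 and Uhrf1 and -0.29 for Dnmt3a and Dnmt3b. These points share arrays, cultures and normalization, and serve as a description. Among the 9608 or 9609 genes brighter than the median gene that were searched, those most like Dnmt3a were Spcs3 (r = 0.84), a signal peptidase subunit, Klhl5 (0.84) and Ermp1 (0.82). Dnmt1 was most like Rfc1 (0.78), the large subunit of the clamp loader of DNA replication, Pcnt (0.76) and Iws1 (0.72). Tet2 was most like Pcm1 (0.84), a centriolar satellite protein, Ep400 (0.83) and Tnrc6b (0.82), and Tet3 was most like Psmd11 (0.78), a proteasome subunit, U2surp (0.78) and Rab11fip1 (0.78). Uhrf1 was most like Ssbp4 (0.74), Hs6st1 (0.67) and Ttc7 (0.65). For Dnmt3b these were Ik (0.78), Smc6 (0.78), a subunit of a DNA repair complex, and Fn3krp (0.78), and for Tet1 they were Tmem86a (0.74), Mcc (0.72) and Hoxa4 (0.70).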

How the data were processed

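Total RNA of 30 cultures was hybridised to Affymetrix Mouse Gene ST 1.0 arrays. The deposited values are log2 expression per probe set, which the authors made by robust multi-array averaging (affy); the submitters' notes name RMA, affy and mm9. This method equalises the arrays' probe intensities before they are summarised, so a change in total RNA is not visible; the deposited probe-set values still differ somewhat in median and spread. Small differences at low signal are compressed. The number of arrays limits the precision, and depth does not apply.

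Of 34760 probe sets, 21640 carried 1 gene symbol in the platform annotation, 1321 carried several and 11799 were unnamed here. Entrez identifiers of 21553 were found in RefSeq GRCm38.p6. Genes with several probe sets (954) were represented by the one with the highest mean, leaving 19937 genes. Array coordinates are not given because mm9 differs from GRCm38.p6.

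Groups came from the sample labels. Fits used limma 3.58.1 in R 4.3.3 (lmFit and eBayes) with Benjamini-Hochberg adjustment over all genes: the 23 parental arrays together, the 4 untreated resistant lines with 5 parental 0 h arrays, and 16 arrays of treated and untreated cells, with line as a covariate and separate treatment effects for resistant and parental cells. Intervals are per gene and unadjusted. The study's methods name no test between groups. The steps were tested on simulated data.

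The 7 genes and the pathway and marker lists were chosen with earlier results of these data known. All 7 are described, with the called genes of the lists (up to 4 per comparison) and, for each of the 7, up to 3 genes of highest correlation among the brighter genes. Other centrings, filters, weights, covariates, blocks and fits without 1 array were tried. Results of the authors' own comparisons were not used.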

Additional observations from a re-analysis of the deposited data

Results flagged for a closer look

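In 35 groups of 4 or 5 parental arrays (7 genes at 5 times), the gap between 1 array and the rest was large for its group in 2, where chance gives about 1 in 20. Dnmt3b on parental 48 h replicate 2 was 7.92, while the other 48 h arrays lay between 8.16 and 8.21. Tet2 on parental 6 h replicate 2 was 9.42, while the other 6 h arrays lay between 9.27 and 9.28. Both arrays carry the number 2 in their descriptions.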

How the results depend on the processing

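Under 46 alternative settings, 2219 values of the 7 genes were recomputed, and 2206 kept their side of the threshold. Of the others, 10 lost a call and 3 gained one, all for Dnmt3a. Many settings left the estimate itself unchanged, so this tally says little about how firm a value is. A reversal means a called value that changed sign, and there was none; 126 uncalled values changed sign. The number of the 7 genes called at 24 h was 1 and fell to 0 with the fibroblast or the S phase mean as a covariate, with 0 h and 24 h arrays alone in the fit, and without the 2 arrays of highest fibroblast mean at 24 h (chosen after seeing the data); without single arrays it was 0 to 1. Over all settings the Dnmt3a difference at 24 h lay between 0.25 and 0.40, with adjusted p between 0.00285 and 0.152. In the F test over the times 0 of the 7 were called, and 1, Dnmt3a, with array weights (adjusted p = 0.0351). The cause was not tested.

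Arrays of the same number shared deviations in 41 of 43 pairs (r over 0.1, lowest 0.07, highest 0.77), and 21 of 23 arrays correlated best with their own number. When this number entered as a replicate block, Dnmt3a was called over the time course (1 of the 7, F = 6.25, adjusted p = 0.0273) and at 24 h (adjusted p = 0.00285), and 4711 genes were called at 24 h. With the title number as a block Dnmt3a was also called over the time course (1 of the 7, F = 6.48, adjusted p = 0.0374). The block changed no other call of the 7.

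Genes called over the whole array moved more. At 24 h they numbered 1351, with 524 to 2678 without single arrays and 122 in a fit of the groups compared only. The count at 6 h was 4 (0 to 21 without single arrays, 62 with the block), at 12 h 102 (43 to 179, 708 with the block), at 48 h 50 (17 to 219, 654 with the block), and between 48 h and 24 h 21 (10 to 25, 700 with array weights). The F test called 466 genes (190 to 753, 3058 with array weights). In the untreated resistant lines 15 were called (0 to 24, 206 in a fit of all 30 arrays), in treated against untreated lines 6 (2 to 8, 161 with array weights), and for the difference in response 0 (0 to 128, the highest without parental 24 h replicate 3). With 1 array per line, a difference of a single line has no replicate check, and the low signal of its probe sets limits Tet1.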
